A study of Mus musculus with 16 samples.

Results

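Acute-phase and innate defense proteins were followed in primary mammary fibroblasts as a set of 10 named genes: the serum amyloid A genes SAA1 and SAA3, haptoglobin (HP), lipocalin 2 (LCN2), pentraxin 3 (PTX3), the complement genes C3 and CFB, the mitochondrial superoxide dismutase SOD2, and the transcription factor genes CEBPB and CEBPD. The members were named with earlier results of these data known and were then found by gene symbol, and 9 of the 10 were found among the 18132 genes of the table. CEBPD was not analysed here. The fibroblasts came from inguinal mammary glands of female 129S6 mice aged 8 to 10 weeks, either MEKK1+/+ or MEKK1-/-, and were grown in DMEM with serum. They were then left in that medium (untreated) or exposed for 8 h to conditioned medium (CM), growth medium taken from cultures of the human breast cancer line MDA-MB-231. Each of the 4 combinations was measured on 4 Illumina Mouse 8 arrays, 16 in all, which read the amount of a transcript as the brightness of its probe. The comparisons ask which genes tumor cell factors change in mammary fibroblasts, and whether MEKK1 bears on them. The methods name fewer mice than cultures for each genotype, and which cultures share a mouse is not given in the sources used here, so the spread and the p-values below describe cultures.

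Acute-phase proteins are plasma and tissue proteins whose production rises within hours of infection, injury or inflammation. Most of the plasma forms come from the liver, where interleukin-1 and interleukin-6 act through NF-kB, STAT3 and C/EBP transcription factors, and fibroblasts, macrophages and epithelial cells make several of them locally. Their products bind microbes and lipids, capture iron-carrying molecules and hemoglobin, start complement deposition, or protect mitochondria from superoxide. MEKK1, the kinase encoded by MAP3K1, lies upstream of JNK and other kinases that inflammatory cytokines engage.

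The promoters of members that differ in their response to CM are shown here, because C/EBP and NF-kB proteins are the factors best known for driving acute-phase genes. The 250 bases before the annotated start were taken from RefSeq (build GRCm38.p6), which gave an entry for 7 of the 10 members. CFB, HP and CEBPD were without an entry in the table used. Capitals mark matches to the C/EBP motif TTGCNNAA or to the NF-kB consensus, each read on both strands, and no match overlapped a match to another motif. The windows lie at chr7:46715677-46715926 (minus strand), chr7:46742981-46743230 (minus strand), chr2:32387740-32387989 (minus strand), chr3:66219637-66219886 (plus strand), chr17:57228137-57228386 (minus strand) and chr17:13007589-13007838 (plus strand), and each is written 5′ to 3′ on the strand of its gene.
Saa3: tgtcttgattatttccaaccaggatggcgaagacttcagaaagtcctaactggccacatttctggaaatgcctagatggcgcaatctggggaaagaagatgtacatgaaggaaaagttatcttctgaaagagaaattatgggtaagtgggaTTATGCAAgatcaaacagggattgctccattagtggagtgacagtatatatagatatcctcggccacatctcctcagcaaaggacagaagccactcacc
Saa1: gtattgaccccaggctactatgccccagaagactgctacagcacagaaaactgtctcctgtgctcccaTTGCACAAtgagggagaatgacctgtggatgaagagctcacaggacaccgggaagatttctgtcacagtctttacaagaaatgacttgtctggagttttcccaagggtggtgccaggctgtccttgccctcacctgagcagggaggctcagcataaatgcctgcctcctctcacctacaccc
Lcn2: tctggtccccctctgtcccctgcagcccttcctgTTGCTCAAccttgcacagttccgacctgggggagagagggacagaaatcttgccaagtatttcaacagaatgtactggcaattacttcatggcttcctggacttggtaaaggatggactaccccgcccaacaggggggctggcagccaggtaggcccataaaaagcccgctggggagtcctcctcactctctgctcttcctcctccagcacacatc
Ptx3: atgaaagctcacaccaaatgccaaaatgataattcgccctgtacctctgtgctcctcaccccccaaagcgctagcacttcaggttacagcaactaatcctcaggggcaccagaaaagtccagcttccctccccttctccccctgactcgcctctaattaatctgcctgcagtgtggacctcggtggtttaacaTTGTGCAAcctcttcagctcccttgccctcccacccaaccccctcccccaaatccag
C3: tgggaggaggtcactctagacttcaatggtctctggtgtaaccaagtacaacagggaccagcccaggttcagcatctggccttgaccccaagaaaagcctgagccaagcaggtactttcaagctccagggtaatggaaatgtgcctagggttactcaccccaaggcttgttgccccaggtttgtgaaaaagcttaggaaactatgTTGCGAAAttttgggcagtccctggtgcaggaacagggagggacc
Sod2: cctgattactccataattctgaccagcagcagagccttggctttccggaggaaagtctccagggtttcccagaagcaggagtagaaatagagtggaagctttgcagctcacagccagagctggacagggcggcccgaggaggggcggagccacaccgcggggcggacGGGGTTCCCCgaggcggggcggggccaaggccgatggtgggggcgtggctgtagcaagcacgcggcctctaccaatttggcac

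The C/EBP motif occurred in 5 of the 7 member promoters (SAA1, SAA3, LCN2, C3 and PTX3), against 9.56% of 32851 mouse promoters of the same length. Its distance from the start ranged from 45 bases in C3, through 57 in PTX3, 99 in SAA3 and 182 in SAA1, to 216 in LCN2. The NF-kB consensus was found in the SOD2 promoter only, 83 bases before the start, against 3.9% of all promoters. The AP-1 motif TGANTCA was in none of the 7 (6.75% of all promoters), and the CEBPB promoter held no match to any of the 3 motifs. SAA1, whose transcript stayed near background below, holds a match as well. A match is a description of the letters in these windows, not a bound site.

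Deposited intensities were converted to log2 and quantile normalized, and every level below is a normalized log2 intensity, so that a difference of 1 is a 2-fold difference in intensity. Levels of different genes are not set against each other, since probes differ in brightness. A gene was taken to be above background on an array where it exceeded the 99th percentile of 1075 olfactory receptor genes there, most of which are silent outside the nose. SAA3, C3, PTX3, SOD2 and CEBPB passed this level on all 16 arrays, CFB on 13, LCN2 on 12, HP on 8 and SAA1 on 3. Differences between groups were tested with limma over all genes, and a gene is called where its Benjamini-Hochberg adjusted p is under 0.05. The number of arrays limits the precision: a 2-sided exact permutation test of 4 against 4 cannot go below p = 0.0286.

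Several facts about the arrays touch the results. The 4 arrays numbered 2, 1 in each group, correlated better over all genes with the other genotype under the same treatment than with their own group, and no other array did. MAP3K1 itself had no lower mean where the label was MEKK1-/- (log2 difference in untreated cells 0.53, standard error 0.15, adjusted p = 0.465 by limma). Its untreated levels ran from 7.51 to 7.95 with the label MEKK1+/+ and from 8.06 to 8.41 with the label MEKK1-/-. In that comparison 2.59% of all genes were higher without overlap. The untreated arrays numbered 2 lay within the ranges of their labels, at 7.77 and 8.31. With CM the ranges overlapped (7.42 to 8.18 and 7.79 to 8.29). The genotype of every array was therefore taken from its label, and each comparison between groups was also made without the arrays numbered 2. Of 14 fibroblast markers, 12 were above background on every array, and none of 7 fat cell markers was above it on any. Macrophage markers varied widely: 14 of 16 were above background on at least 1 array (MSR1 and FCER1G on none), and their summed intensity ran from 15400 to 48200 on untreated MEKK1+/+ arrays, from 13700 to 42900 with CM, from 6260 to 32200 on untreated MEKK1-/- arrays and from 6030 to 29200 with CM. In bulk cultures, fewer cells of a type and less RNA per cell cannot be told apart.

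SAA3, the serum amyloid A made largely outside the liver, changed more from culture to culture than any other member. On the untreated MEKK1+/+ arrays 1 to 4 its level was 13.32, 8.11, 13.97 and 15.07, beside 14.39, 13.80, 14.79 and 14.94 with CM. Untreated MEKK1-/- cultures gave 11.69, 13.96, 7.77 and 8.02, beside 13.78, 14.91, 13.47 and 13.66 with CM. Untreated cultures thus ran from near background (MEKK1+/+ 2, MEKK1-/- 3 and 4) through an intermediate level (MEKK1-/- 1) to the range seen with CM, whereas every culture with CM was high. The untreated arrays spanned 157-fold and the CM arrays 2.78-fold. The mean response was 1.86 (standard error 1.39, adjusted p = 0.592) in MEKK1+/+ cells and 3.60 (standard error 1.39, adjusted p = 0.187) in MEKK1-/- cells, and neither was called. Leaving out 1 array moved the response from 0.36 (without untreated array 2) to 2.68 (without untreated array 4) in MEKK1+/+ cells and from 2.73 to 4.8 in MEKK1-/- cells, never called. Arrays joined by number were taken as pairs in MEKK1-/- cells only, since the check of shared deviations failed for 1 of the 4 numbers in MEKK1+/+ cells. That check does not show the MEKK1+/+ numbers to be unpaired. Macrophage marker sums, given below, were close between same-numbered arrays of both genotypes. By number, the 3 cultures that started lowest rose 51.6-fold (MEKK1+/+ 2), 51.8-fold and 50.1-fold (MEKK1-/- 3 and 4), while MEKK1+/+ 4, which started highest, changed by 0.916-fold.

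The plasma acute-phase genes SAA1 and HP did not share this response. SAA1, a serum amyloid A of liver and plasma, was between 6.95 and 7.31 on all 16 arrays and above background on 3, all of them untreated MEKK1+/+. Its response was −0.12 (95% interval −0.27 to 0.02) in MEKK1+/+ and −0.07 (−0.21 to 0.07) in MEKK1-/- cells, so the arrays gave no measurable SAA1 induction. HP, which binds free hemoglobin, was 7.42, 7.08, 7.93 and 8.71 on untreated MEKK1+/+ arrays and 7.34, 7.08, 7.42 and 8.69 with CM. On MEKK1-/- arrays it was 7.12, 8.08, 7.01 and 6.92 untreated and 7.04, 8.02, 6.96 and 7.07 with CM, and only array 2 was above background in either group. By number, HP with CM was within 0.15 of its untreated level (log2) except on the MEKK1+/+ arrays numbered 3, where it was lower by 0.51. The response was −0.15 (95% interval −1.0 to 0.69) in MEKK1+/+ and −0.01 (−0.85 to 0.84) in MEKK1-/- cells.

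LCN2, a lipocalin that binds bacterial siderophores and so withholds iron, was low in most untreated cultures and clearly above background in every culture with CM. Its levels were 7.80, 6.50, 7.85 and 10.71 on untreated MEKK1+/+ arrays and 10.33, 9.63, 10.28 and 11.39 with CM. On MEKK1-/- arrays they were 7.09, 7.75, 6.76 and 6.62 untreated, with array 2 alone above background, and 8.62, 10.61, 9.25 and 9.40 with CM. The MEKK1-/- groups did not overlap, while in MEKK1+/+ cells the untreated array 4 lay among the treated ones. The response was 4.58-fold in MEKK1+/+ (log2 2.19, standard error 0.68, adjusted p = 0.0836) and 5.33-fold in MEKK1-/- cells (log2 2.41, standard error 0.68, adjusted p = 0.0575), in neither case called. It was higher with CM in all 4 numbered pairs of MEKK1-/- cultures. With 1 array left out the MEKK1+/+ response ran from 1.62 (adjusted p = 0.245, without untreated array 2) to 3.03 (adjusted p = 0.0027, without untreated array 4), and it passed in 1 of 16 such fits. The MEKK1-/- response passed in 3 of the 16.

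PTX3, a soluble pattern receptor that opsonizes microbes and that fibroblasts make under inflammatory cytokines, was called in MEKK1-/- cells. Its untreated levels there were 12.15, 12.93, 11.68 and 11.74, and those with CM were 13.28, 13.87, 13.60 and 13.56, without overlap. The response was 2.74-fold (log2 1.45, standard error 0.38, adjusted p = 0.0419). In MEKK1+/+ cells the levels were 12.77, 11.39, 13.31 and 13.54 untreated and 13.64, 13.35, 14.24 and 13.80 with CM, where the untreated array 4 lay above treated array 2. The response there was 2.00-fold (log2 1.00, standard error 0.38, adjusted p = 0.175) and was not called. PTX3 was higher with CM in all 4 numbered pairs of MEKK1-/- cultures. Its call in MEKK1-/- cells was close to the threshold: it passed in 9 of 13 other ways of processing the arrays and in 7 of the 16 fits that left out 1 array.

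The complement genes C3, the component that all complement pathways cleave, and CFB, the alternative pathway protease that joins it, both had higher means with CM. C3 levels were 9.85, 7.67, 10.58 and 11.89 on untreated MEKK1+/+ arrays and 11.54, 11.25, 12.14 and 12.32 with CM. On MEKK1-/- arrays they were 8.75, 10.65, 8.24 and 8.17 untreated and 10.18, 11.92, 11.61 and 11.58 with CM. In each genotype 1 untreated culture (array 4 of MEKK1+/+, array 2 of MEKK1-/-) reached the treated range. The response was 3.53-fold (log2 1.82, standard error 0.73, adjusted p = 0.201) in MEKK1+/+ and 5.17-fold (log2 2.37, standard error 0.73, adjusted p = 0.0854) in MEKK1-/- cells. The C3 response in MEKK1+/+ cells ran from 1.04 (without untreated array 2) to 2.45 (without untreated array 4) with 1 array left out, and was never called. CFB differed less, by 1.62-fold (log2 0.69, standard error 0.56) and 1.61-fold (log2 0.69, standard error 0.56), with adjusted p of 0.637 and 0.652. Its levels differed more between cultures than between treatments: 7.38, 6.86, 8.25 and 9.56 became 8.01, 7.85, 9.03 and 9.94 in MEKK1+/+ cells, and 7.93, 8.13, 6.89 and 6.68 became 8.26, 8.77, 7.75 and 7.62 in MEKK1-/- cells. Neither gene was called, yet both were higher with CM in all 4 numbered pairs of MEKK1-/- cultures, CFB by 0.33 to 0.94 on the log2 scale.

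SOD2, which converts superoxide to hydrogen peroxide in mitochondria and is a classical target of NF-kB, had the response called most often among the members. In MEKK1-/- cells it was 12.41, 13.64, 12.51 and 12.43 untreated and 14.21, 14.37, 14.07 and 14.11 with CM, without overlap. The response was 2.72-fold (log2 1.44, standard error 0.30, adjusted p = 0.0109), and it stayed called in all 13 other ways of processing and all 16 fits that left out 1 array. In MEKK1+/+ cells the levels were 13.42, 12.58, 13.61 and 14.26 untreated and 14.19, 14.02, 14.08 and 14.08 with CM. There the untreated array 4 was above every treated array, and the response of 1.54-fold (log2 0.62, standard error 0.30, adjusted p = 0.303) was not called. The treated cultures of both genotypes ended within 0.36 of each other on the log2 scale. The interaction, the MEKK1-/- response minus the MEKK1+/+ response, was 0.82 (standard error 0.42, unadjusted p = 0.0691 by limma, adjusted p = 1), so the responses of the genotypes were not shown to differ.

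CEBPB, a C/EBP transcription factor that itself rises in acute-phase responses, was bright on every array and moved little. Its levels were 14.03, 13.90, 14.19 and 14.03 on untreated MEKK1+/+ arrays and 14.58, 14.07, 14.59 and 13.93 with CM. On MEKK1-/- arrays they were 13.72, 14.13, 13.55 and 13.39 untreated and 14.27, 14.68, 14.12 and 14.21 with CM, where treated array 3 lay just below untreated array 2. The response was 1.19-fold (log2 0.25, standard error 0.18, adjusted p = 0.552, and −0.07 with values as deposited) in MEKK1+/+ and 1.54-fold (log2 0.63, standard error 0.18, adjusted p = 0.0554) in MEKK1-/- cells.

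**Figure D1:**
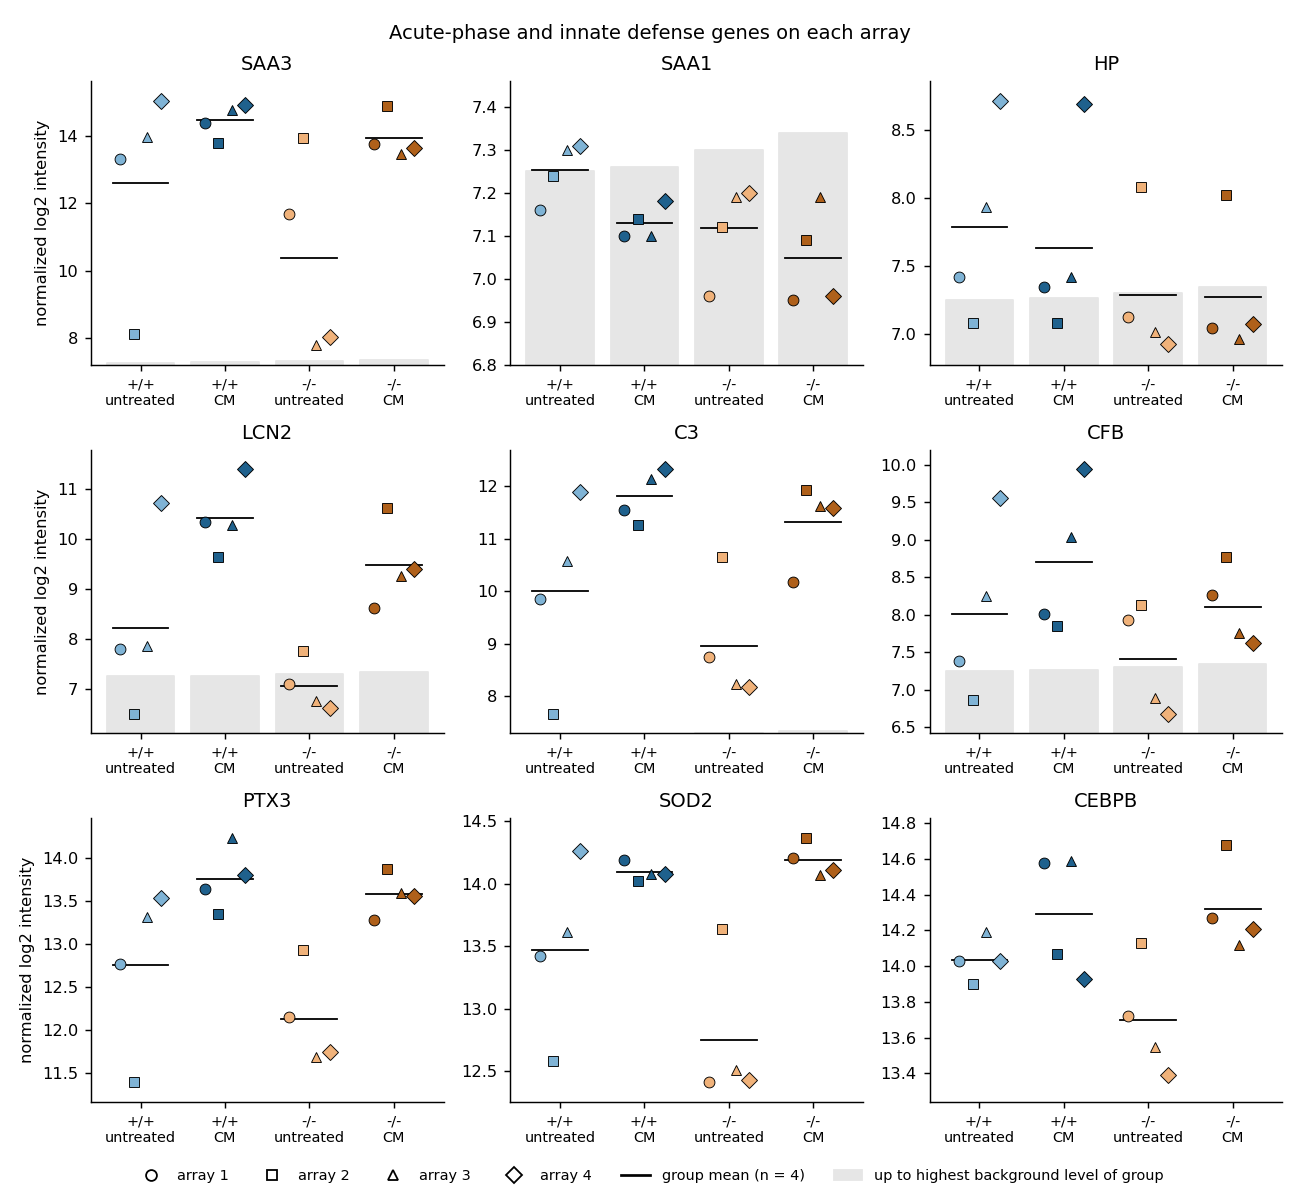
Normalized log2 intensity (vertical axis, scaled separately for each gene) of the 9 members on all 16 arrays, 4 per group, with the group mean as a line, array numbers as marker shapes and grey up to the highest background level of the group's arrays. Untreated SAA3 runs from 7.77 to 15.07 while all 8 arrays with CM lie at 13.47 or above, and SAA1 and HP show no such rise.

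As a list, 0 of the 9 members were called by limma in MEKK1+/+ cells, where 5.01% of all genes were called and 2.27% were called higher. An unadjusted p under 0.05 was found there for 3 members (LCN2, C3 and PTX3) and for 16.8% of all genes. In MEKK1-/- cells 2 of 9 were called, SOD2 and PTX3, both higher, where 4.69% of all genes were called and 2.18% were called higher. SAA3, LCN2, C3, PTX3, SOD2 and CEBPB had an unadjusted p under 0.05 there by limma, as did 16.2% of all genes. Arrays of the groups did not overlap for 0 of 9 members in MEKK1+/+ cells (4.68% of all genes were higher without overlap) and for 3 of 9 in MEKK1-/- cells, LCN2, PTX3 and SOD2 (4.9%). The median response of the members was 0.69 in MEKK1+/+ and 1.44 in MEKK1-/- cells, beside 0.00 over all genes in both. In each genotype 7 members had a higher mean with CM, and SAA1 and HP did not, except that CEBPB in MEKK1+/+ cells was at −0.07 with values as deposited. The interaction called 0 of 9 members and 0% of all genes by limma, and an unadjusted p under 0.05 was found for none of the members and 2.61% of all genes. Its widest 95% interval was that of SAA3, from −2.45 to 5.91.

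**Figure D2:**
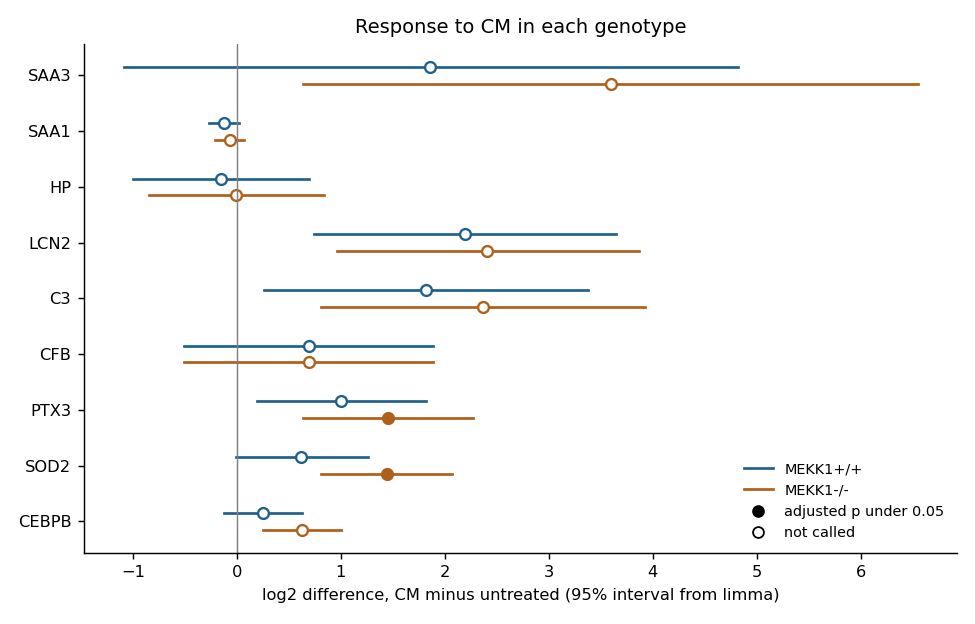
Log2 difference between CM and untreated arrays (horizontal axis) for the 9 members in MEKK1+/+ and MEKK1-/- cells, with 95% intervals from limma, filled where the adjusted p was under 0.05. Only SOD2 and PTX3 in MEKK1-/- cells are filled, and the intervals of SAA3 are the widest.

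Arrays of the same number shared deviations in MEKK1-/- cells, so a fit that compared treated and untreated cultures of the same number within each genotype was also made. It called 6 members in MEKK1-/- cells, all higher: LCN2 (adjusted p = 0.00211), C3 (0.0147), CFB (0.00518), PTX3 (0.00505), SOD2 (0.00445) and CEBPB (0.00386). The same fit called 7.93% of all genes there, and SAA3 had an adjusted p of 0.0513. In MEKK1+/+ cells this limma fit called 8.17% of all genes and 4 members. These were LCN2 (adjusted p = 0.00391), C3 (0.0465), CFB (0.00554) and PTX3 (0.0297), each higher with CM at every number. The fit took a single estimate of the spread from both genotypes, so its p-values in either rest on the numbers of both. From pair to pair of MEKK1-/- cells the ratio of treated to untreated level ran from 1.47-fold to 1.77-fold in CEBPB, 1.25-fold to 1.92-fold in CFB, 1.92-fold to 3.81-fold in PTX3, 1.66-fold to 3.48-fold in SOD2, 2.89-fold to 7.26-fold in LCN2 and 2.41-fold to 10.7-fold in C3. It was most unequal in SAA3 (1.93-fold to 51.8-fold). Untreated LCN2 was not above background on MEKK1-/- arrays 1, 3 and 4, nor was untreated CFB on arrays 3 and 4. Their ratios at those numbers start from background and may be too small. The smallest ratios of SAA3, C3, PTX3 and SOD2 in MEKK1-/- cells belonged to culture 2, which started highest. LCN2 went the other way: culture 2 also started highest (7.75) but had the largest ratio (7.26-fold). In CFB, culture 2 started highest (8.13), and the smallest ratio (1.25-fold) was in culture 1. Each ratio is divided by its own starting level, so ratio and starting level are not independent.

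**Figure D3:**
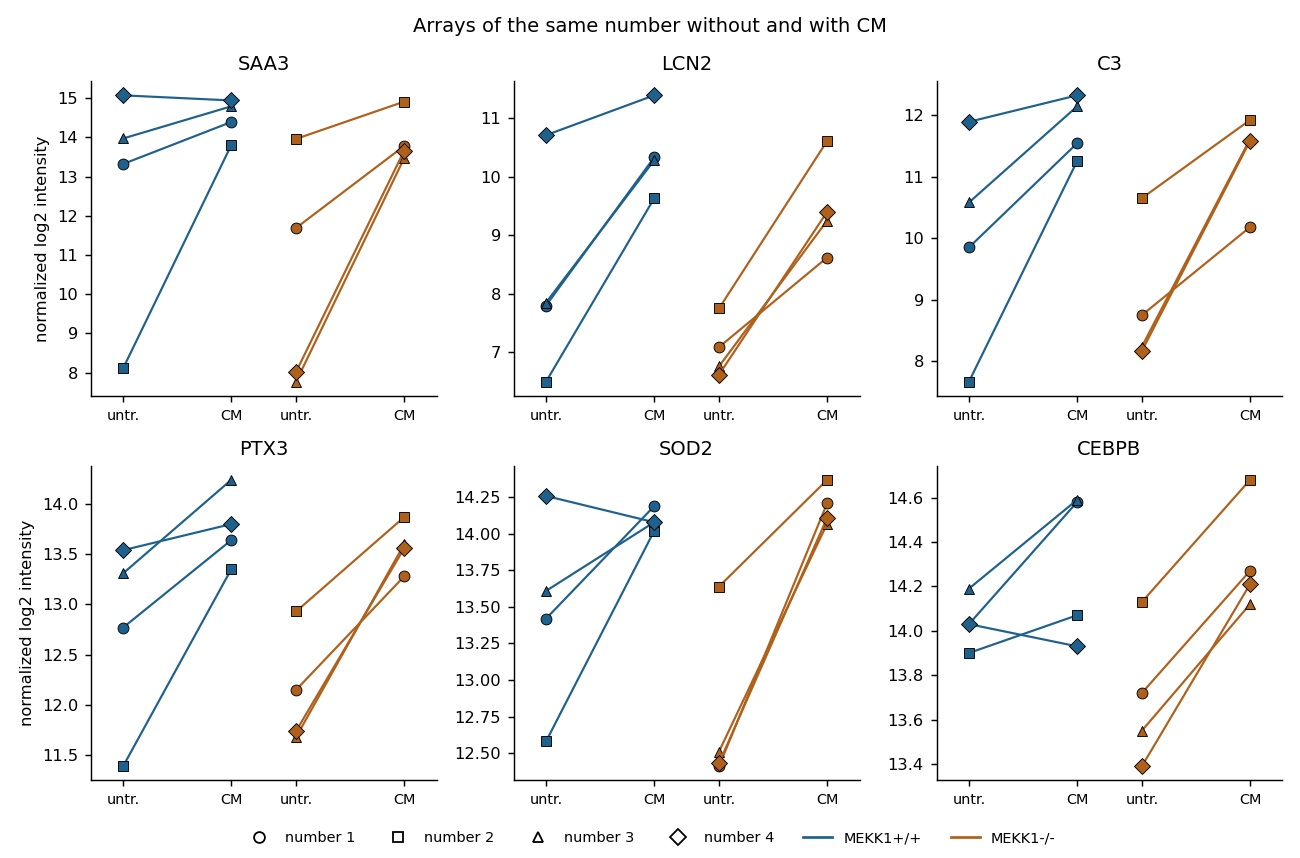
Normalized log2 intensity of 6 members on untreated and CM arrays (horizontal axis), joined by array number (a check of shared deviations passed in MEKK1-/- cells only), MEKK1+/+ on the left and MEKK1-/- on the right of each panel. LCN2, C3 and PTX3 rise along all 8 lines, while the SAA3 lines start between 7.77 and 15.07 and end between 13.47 and 14.94.

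Treated cultures were more alike than untreated ones in several members. The standard deviation of SAA3 was 3.09 untreated and 0.51 with CM in MEKK1+/+ cells, and 3.00 and 0.65 in MEKK1-/- cells. That of SOD2 was 0.69 and 0.07 in MEKK1+/+ cells, and 0.60 and 0.13 in MEKK1-/- cells. Of the 5 members above background on all arrays, 4 (SAA3, C3, PTX3 and SOD2) varied more among untreated cultures in both genotypes, against 21.7% of the 6923 genes above background on all arrays. CEBPB went the other way in MEKK1+/+ cells, with 0.12 untreated and 0.34 with CM. LCN2 did so in MEKK1-/- cells (0.50 and 0.83), where its untreated levels were mostly at background. Among all 9 members, 5 varied more untreated in both genotypes, against 23.7% of all genes. The exceptions were SAA1, LCN2, HP and CEBPB. This is a description with 4 arrays a group, and the spread was not tested.

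Between genotypes, all 9 members had lower means on untreated MEKK1-/- arrays, and none was called. No gene of the table was called in this comparison by limma (0%), and 1680 genes (9.27%) had an unadjusted p under 0.05. The difference was −2.26 for SAA3 (standard error 1.39, adjusted p = 0.626), −1.16 for LCN2 (0.68, adjusted p = 0.607), −1.04 for C3 (0.73, adjusted p = 0.667) and −0.63 for PTX3 (0.38, adjusted p = 0.624). SOD2, at −0.72 (standard error 0.30, adjusted p = 0.519), was the member with an unadjusted p under 0.05 (0.028). CFB, HP, CEBPB and SAA1 differed by −0.60, −0.50, −0.34 and −0.14. The median over the members was −0.63, beside 0.01 over all genes. With 1 array left out the difference ran from −3.76 to −1.39 for SAA3, −1.73 to −0.33 for LCN2 and −1.82 to −0.41 for C3, and no member was called.

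This comparison turned on the arrays numbered 2. Without both untreated arrays numbered 2, 4 of 9 members were called, all lower on MEKK1-/- arrays: SAA3 (−4.96, adjusted p = 0.0158), C3 (−2.38, adjusted p = 0.044), PTX3 (−1.35, adjusted p = 0.02) and SOD2 (−1.31, adjusted p = 0.00235), where 0.954% of all genes were called. Without all 4 arrays numbered 2 the same members were called, with adjusted p of 0.0107, 0.0312, 0.0074 and 0.00193, where 2.09% of all genes were called. These arrays were singled out after the profiles had been seen, from a likeness over all genes that includes the members, so the calls without them are no independent support for a genotype difference. Under the same omission of all 4 arrays, CM called 5 members in MEKK1-/- cells (SAA3 4.48, C3 2.74, PTX3 1.63, SOD2 1.68 and CEBPB 0.65) and 3.57% of all genes. In MEKK1+/+ cells it called 0 members and 2.51% of all genes, and the SAA3 response there was 0.59. The interaction still called no member, the lowest adjusted p being that of SOD2 (1.33, adjusted p = 0.282), where 0.011% of all genes were called. Without both untreated arrays numbered 2 it called no member either, with SOD2 again lowest (1.41, adjusted p = 0.0696 by limma). There 0.0165% of all genes were called.

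**Figure D4:**
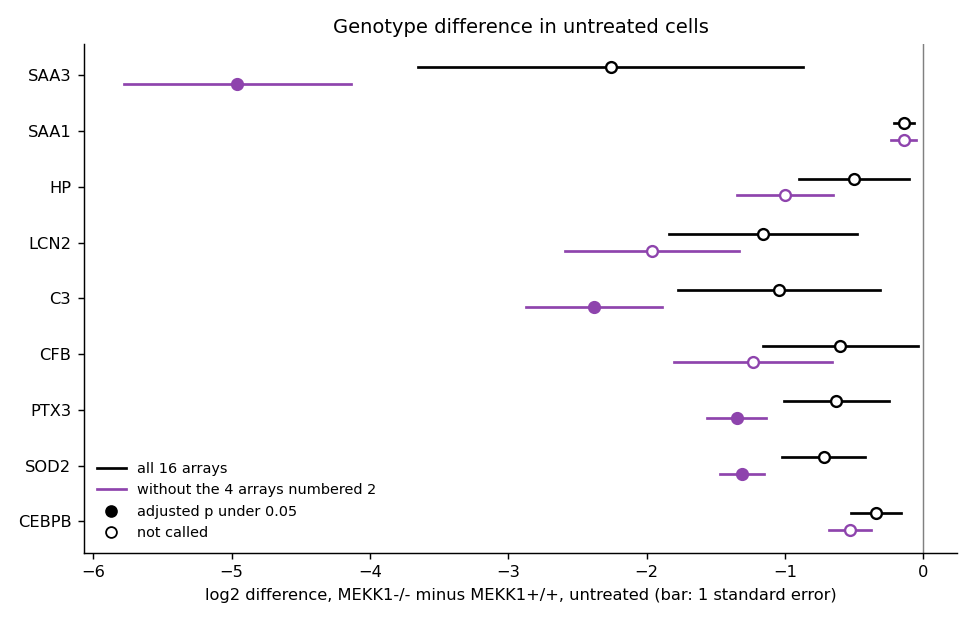
Log2 difference of MEKK1-/- from MEKK1+/+ in untreated cells (horizontal axis, bars of 1 standard error) for the 9 members over all 16 arrays and without the 4 arrays numbered 2, filled where the adjusted p was under 0.05. All values are below 0, none is called over all arrays, and SAA3, C3, PTX3 and SOD2 are called without the arrays numbered 2.

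With CM the difference between the genotypes was nearer to 0 than in untreated cells for every member except CFB, and the change in that difference, which is the interaction, was called for none. No member was called by limma, and 0.00552% of all genes were; an unadjusted p under 0.05 was found for no member and 8.09% of all genes. The difference was −0.94 (95% interval −2.39 to 0.51) for LCN2, −0.61 (−1.81 to 0.59) for CFB, −0.53 (−3.48 to 2.43) for SAA3, −0.49 (−2.05 to 1.07) for C3 and −0.36 (−1.20 to 0.49) for HP. PTX3 at −0.18, SAA1 at −0.08 (0.23 as deposited), SOD2 at 0.10 (−0.08 when arrays were scaled to the same median) and CEBPB at 0.03 (−0.14 in that scaling) were nearer still, and the median over the members was −0.36 beside 0.00 over all genes. The intervals of LCN2, CFB, SAA3, C3 and HP reach beyond a 2-fold lower level. Without all 4 arrays numbered 2 the differences with CM were larger, −1.58 for LCN2 (adjusted p = 0.322), −1.12 for CFB, −1.07 for SAA3, −0.87 for C3, −0.79 for HP and −0.41 for PTX3, still with no member called, where 0.662% of all genes were called.

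Macrophage marker levels differed between cultures as untreated SAA3 did, in the same order on untreated MEKK1-/- arrays but not on untreated MEKK1+/+ arrays. Of the 16 macrophage markers, 15 had lower means on untreated MEKK1-/- arrays and 15 with CM, and none was called. The summed intensity was 48200, 15400, 41000 and 32300 on untreated MEKK1+/+ arrays 1 to 4 and 14600, 32200, 6260 and 6580 on untreated MEKK1-/- arrays. The lowest sum of MEKK1+/+ and the highest of MEKK1-/- both belonged to array 2, and these were also the lowest and the highest SAA3 of their groups. Untreated MEKK1-/- arrays 1 to 4 had SAA3 at 11.69, 13.96, 7.77 and 8.02, in the same order as their sums. On the other untreated MEKK1+/+ arrays the order was opposite, with sums of 48200, 41000 and 32300 beside SAA3 at 13.32, 13.97 and 15.07. With CM the sums were close to those of the untreated array of the same number (42900, 13700, 39000 and 32200 in MEKK1+/+, 15600, 29200, 6030 and 6930 in MEKK1-/-). SAA3 was at 13.47 and 13.66 on treated MEKK1-/- arrays 3 and 4, where the macrophage sums with CM were lowest. These were also the lowest SAA3 levels with CM, and the other CM arrays ran from 13.78 to 14.94. The part of other cells in the levels, untreated or with CM, was not tested.

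**Figure D5:**
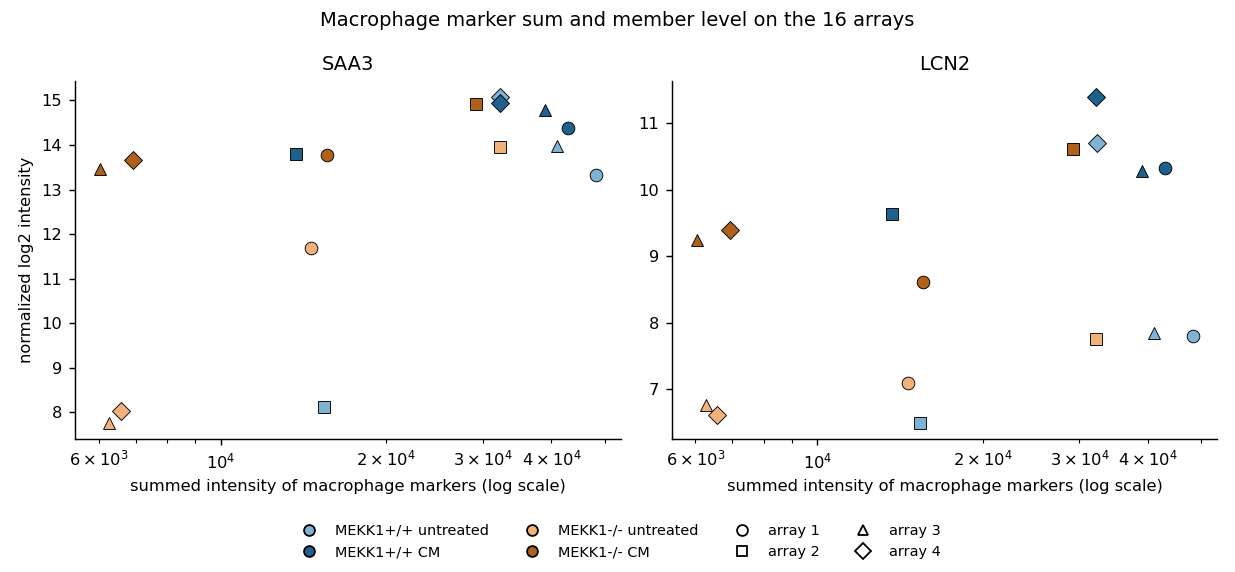
Summed normalized intensity of 16 macrophage markers (horizontal axis, log scale) against the normalized log2 intensity of SAA3 and LCN2 (vertical axis) on the 16 arrays, coloured by group with array numbers as shapes. The 4 untreated arrays with sums of 15400 or less have SAA3 at 11.69 or lower, and the CM arrays lie at 13.47 or above for sums from 6030 to 42900. SAA3 with CM is lowest (13.47) at the lowest sum (6030).

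Some markers of other cells were high in single cultures. The neutrophil sum was 5360 untreated and 5280 with CM on the MEKK1+/+ arrays numbered 4, and 1060 to 2210 on all MEKK1-/- arrays. Of 9 neutrophil markers, 6 were above background on no array (NGP, LTF, ELA2, MPO, CSF3R and IL8RB), and S100A8 and CAMP reached 11.81 and 10.07. S100A9 was above background on no MEKK1+/+ array and on 1 array of each MEKK1-/- group (8.03 untreated, 8.39 with CM). The high sum on the MEKK1+/+ arrays numbered 4 thus came from S100A8 and CAMP. Most members were also highest of their group on those arrays: SAA1, SAA3, HP, LCN2, C3 and CFB in both treatments, and PTX3 and SOD2 untreated. The epithelial sum was 11700 and 10600 in MEKK1-/- culture 1 and at most 2120 elsewhere, and in that culture SAA3 lay inside the range of its groups while LCN2 and C3 with CM were the lowest of theirs. The part of these cells in the members' levels was not tested.

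The genes around the members were read from lists of the pathway. Of 24 other acute-phase genes, 12 of them above background on no array, 0 were called in either genotype, and their median response was 0.00 in both. LBP, which hands bacterial lipopolysaccharide to CD14, had a response of 1.25 (standard error 0.43, adjusted p = 0.128) in MEKK1+/+ and 0.89 (adjusted p = 0.337) in MEKK1-/- cells, and the metallothionein MT2 had 1.04 and 1.06 (adjusted p = 0.173 and 0.168). SAA2, the near-identical neighbour of SAA1, differed by −0.11 and −0.16. These 3 were picked after their values were seen. Of 26 other complement genes 1 was called: CRRY, a membrane inhibitor of C3 convertases, fell by 0.35 in MEKK1+/+ cells (standard error 0.08, adjusted p = 0.0198) and differed by −0.17 in MEKK1-/- cells (adjusted p = 0.323). Of 17 other antimicrobial genes 1 was called: NOS2, the inducible nitric oxide synthase, rose by 0.94 in MEKK1+/+ cells (standard error 0.21, adjusted p = 0.0184) and differed by 0.33 in MEKK1-/- cells (adjusted p = 0.509).

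No gene was called among 12 receptors and carriers of the members, 5 other C/EBP family genes or 6 other superoxide and peroxide enzymes. Of 17 upstream cytokines and their relays, 1 was called in MEKK1+/+ cells, TNFRSF1A, a receptor of tumor necrosis factor, which fell by 0.61 (standard error 0.13, adjusted p = 0.0114; −0.24 and not called in MEKK1-/-). In MEKK1-/- cells 2 were called. NFKBIA, an inhibitor and target of NF-kB signalling, rose by 1.89 (standard error 0.50, adjusted p = 0.0442). NFKBIZ, a nuclear cofactor needed for LCN2 transcription in other cells, rose by 2.02 (standard error 0.45, adjusted p = 0.0173). NFKBIZ was 8.91, 10.90, 9.39 and 9.56 on untreated MEKK1-/- arrays and 11.55, 11.63, 12.09 and 11.58 with CM. In MEKK1+/+ cells it was 11.52, 9.5, 10.52 and 11.71 untreated and 12.32, 11.72, 12.64 and 11.83 with CM, without overlap but not called (1.32, adjusted p = 0.12). As in every member except SAA1, array 2 was the highest of the untreated MEKK1-/- cultures and the lowest of the untreated MEKK1+/+ cultures. IL6, a main inducer of acute-phase genes, had a response of 1.45 (adjusted p = 0.25) and 2.10 (adjusted p = 0.0752), and was picked after its value was seen.

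Across the 16 arrays, which share cultures' numbers and treatments, the gene with the profile most like each bright member was found among 6918 others. It was NFKBIA, the NF-kB inhibitor above, for SAA3 (Pearson's r = 0.931, Spearman's rho = 0.853), the chemokine gene CXCL16 for C3 (0.959 and 0.894), GP38, a membrane glycoprotein of stromal cells, for PTX3 (0.969 and 0.929), LOC100044702 for SOD2 (0.983 and 0.833) and EGR1, an early response transcription factor, for CEBPB (0.908 and 0.909). Among the members, C3 and PTX3 were most alike (0.98 and 0.95), and SAA1 was unlike the others (r from −0.26 to 0.39). These values describe the arrays, whose groups and cultures differ as a whole, and carry no test.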

How the data were processed

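Total RNA of 16 cultures was hybridized to Illumina Mouse 8 arrays. The authors deposited linear intensity values, 1 per gene symbol and array, which the labels call normalized. How they were normalized, corrected for background and combined over probes is not given in the sources used here. Array medians of the deposited intensities differed, and as deposited the median gene fell by 0.28 (log2) with CM in MEKK1+/+ cells, so log2 values were quantile normalized. A single limma model (version 3.58.1, lmFit and eBayes, R 4.3.3) held all 4 groups, and p-values were Benjamini-Hochberg adjusted over 18132 genes. The steps were tested on simulated data: of 200 genes changed by 2 (log2) in the MEKK1+/+ response, 198 were recovered and 3 unchanged genes were called. The 200 genes were drawn at random, with the same spread in every group and no effects of culture. The recovery thus does not describe members such as SAA3 and SOD2, whose spread was large or differed between groups. The study's methods name z-tests, which were run as an alternative.

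Members and gene lists were chosen with earlier results of these data known. Genes named from the lists are those called in a CM comparison, and others are said to be picked. Same-numbered untreated and CM arrays were compared after removal of group means: correlations were 0.505, 0.403, 0.219 and 0.251 in MEKK1-/- and −0.0379, 0.485, 0.12 and 0.576 in MEKK1+/+ cells. All MEKK1-/- pairs exceeded 0.1, so the pairing there comes from this check, and the labels do not say what a number stands for. Other alternatives were deposited values, scaling to the same median, normexp, a pseudocount of 16, a floor at 64, a filter on dim genes, z-scores, only the groups compared, eBayes with trend, array weights, replicate blocks and leaving out arrays. Leaving out the arrays numbered 2 was added after the data were seen.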

Additional observations from a re-analysis of the deposited data

Results flagged for a closer look

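In 2 of the 36 sets of 4 arrays looked at (9 members in 4 groups), 1 array stood apart from the rest by Dixon's criterion, which chance alone meets in about 1 set in 20. SOD2 on untreated MEKK1-/- array 2 was 13.64, with the nearest other array at 12.51 and the gap taking 0.926 of the group's range. HP on MEKK1-/- array 2 with CM was 8.02, with the nearest at 7.07 and a gap of 0.895 of the range, and the other 3 arrays of that group were not above background. Both are arrays numbered 2.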

How the results depend on the processing

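The member count moved under these alternatives. In MEKK1-/- cells CM called 2 members, where 4.69% of all genes were called. It called 1 with values as deposited, with scaling to the same median or with a replicate block shared by all groups (PTX3 lost, adjusted p = 0.133, 0.0645 and 0.0716), where 0.248%, 2.55% and 4.61% of genes were called. It called 4 after normexp (4.67% of genes) and 5 with the filter on dim genes (11.1%), with array weights (7.47%), by the z-test (1.28%) or without all 4 arrays numbered 2 (3.57%). It called 6 with the replicate block within genotype (7.93%) or without both untreated arrays numbered 2 (4.51%). Leaving out 1 array at a time gave 1 to 4. In MEKK1+/+ cells CM called 0 members (5.01% of genes), and 1 with the filter (LCN2, adjusted p = 0.0428; 11.8%) or array weights (6.91%), 4 by the z-test (1.29%), 4 with the replicate block within genotype (8.17%; LCN2, C3, CFB and PTX3, though the numbers did not pass as pairs there) and 0 to 1 with 1 array left out. Genotype called 0 members in untreated cells, and 3 by the z-test (1.22%) and 4 and 4 without the arrays numbered 2 (0.954% and 2.09%). With CM it called 0, and 2 by the z-test (1.13%). The interaction called 0, and 4 by the z-test (0.403%), which takes its error from the spread over genes and not between arrays. Some signs turned. As deposited, CEBPB in MEKK1+/+ cells was −0.07, the genotype difference of SAA1 with CM was 0.23 and the interaction of CFB was 0.23. Scaled to the same median, the genotype differences with CM were −0.08 for SOD2 and −0.14 for CEBPB. With array weights that of CEBPB was −0.06, and the interaction of CFB was 0.05 there and 0.05 after normexp. Without both untreated arrays numbered 2, and without all 4, the HP response in MEKK1-/- cells was 0.26 and 0.01 and the interaction of CFB 0.62 and 0.11, and without all 4 the genotype difference of CEBPB with CM was −0.16. With 1 array left out, values ran from −0.50 to 0.16 (HP response, MEKK1+/+), −0.26 to 0.26 (HP response, MEKK1-/-) and −0.09 to 0.13 (CEBPB genotype difference with CM), and interactions from 0.00 to 0.08 (SAA1), −0.61 to 0.79 (LCN2), −0.08 to 1.33 (C3, which the z-test called, and lowest without untreated MEKK1+/+ array 4), −0.52 to 0.41 (CFB) and −0.17 to 0.49 (HP). The cause was not tested. Of 1363 values of members under all alternatives, 1252 kept direction and side of the threshold. Most of these were uncalled results that stayed uncalled, so the count says little about the calls. The 13 values that lost a call all belonged to PTX3 in MEKK1-/- cells.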
